A study of Mus musculus with 7 samples.

Results

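Il7r, the alpha chain of the interleukin-7 receptor, was examined together with its 2 ligands, Il7 and Tslp, and with Crlf2, the chain that pairs with it to bind TSLP. These 4 genes, of 24813 that the array names, are represented by 8 of its 56605 probes that are not controls, and every probe that carries one of the 4 names in the scanner files is described. Il7r was picked because the log2 ratios of these same 7 arrays placed its brighter probe among the lowest in PRA transgenic glands. The genotype values of the 4 genes are therefore given as a description, without a test.

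Total RNA came from mammary glands of nulliparous adult FVB mice aged 20 to 25 weeks, killed at diestrus, with 3 wild-type and 4 PRA transgenic animals and 1 array for each animal. From each animal 1 abdominal gland was taken after its lymph nodes had been cut out. The PRA transgenic mice were bigenic: a GAL-4 transgene driven by the cytomegalovirus promoter activated a PR-A transgene behind GAL-4 binding sites, so that the A form of the progesterone receptor was made in excess of the B form, and the transgene was not limited to mammary epithelium by its promoter. Gland RNA was labeled with Cy5 and hybridized with Universal Mouse Reference RNA in Cy3, which pools mouse cell lines and was common to all arrays, and no array had the dyes swapped. All arrays lay on 1 slide, wild-type in row 1 and PRA transgenic in row 2, so the effect of the slide row cannot be told apart from that of genotype.

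IL-7 is made mainly by stromal, epithelial and lymphatic endothelial cells and keeps T cells, their precursors and innate lymphoid cells alive. Its receptor joins Il7r to the common gamma chain Il2rg and signals through Jak1, Jak3 and Stat5 to genes such as Bcl2. TSLP, a cytokine of epithelia and skin, uses Il7r joined to Crlf2 instead, and acts on dendritic cells, basophils and lymphocytes.

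The 2 Il7r probes are shown first because they read separate stretches of the gene and only one of them gave a signal. Each probe has 60 bases, of which the first 30 are printed, 5′ to 3′, as the scanner files give them, with no bases in capitals because no motif was marked. Both lie on the minus strand of chromosome 15 in mm9, the build named in the files, with starts 5748 bases apart. Which exon or untranslated region each one covers was not analysed here. The Il7 probe with signal, on the minus strand of chromosome 3, is printed with them.
Il7r A_55_P2736590, designed to NM_008372, chr15:9436822-9436881: tgaaggacaaagtacatttatgggtgtggc
Il7r A_52_P32750, designed to AK041838, chr15:9442570-9442629: tcaatcacgttcacaaaataagtatcatct
Il7 A_55_P2732016, designed to NM_008371, chr3:7573196-7573255: gcacttattccaaagatactgaaccttagt

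Values are log2 ratios of the gland's Cy5 to the reference's Cy3 signal, so a difference of 1 is a doubling. Over the arrays, 62.7% to 66.2% of probes were well above background in Cy5 in wild-type and 56.6% to 60.2% in PRA transgenic glands, by the mark of the scanner software, and no spot was saturated. The number of arrays limits the precision. The p-values set a genotype difference against the spread between arrays of the same genotype, which limma moderates over all probes. With 1 array for each animal, that spread holds animal and array differences together. Markers of mammary epithelium and fat gave signal. All 9 luminal epithelial genes listed (Krt8, Krt18 and Krt19 first), all 8 basal genes and all 8 white adipocyte genes passed the filter on dim probes, which kept a probe if 1 of the genotypes had Cy5 well above background on all its arrays. That filter kept 34288 of the 56605 probes. It also passed 11 of 12 T cell genes, 10 of 11 macrophage and dendritic cell genes and 7 of 8 skeletal muscle genes, so passing does not by itself identify the tissue.

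The log2 ratios of Il7r lay lower in PRA transgenic than in wild-type glands by the brighter probe, A_55_P2736590. In wild-type glands its log2 ratio was 7.74 in replicate 1, 5.21 in replicate 2 and 5.11 in replicate 3. In PRA transgenic glands it was 3.35, 3.95, 3.62 and 4.41 in replicates 1 to 4. Every PRA transgenic array was below every wild-type array, and wild-type replicate 1 stood well above the other wild-type arrays. The same order, every PRA transgenic array below every wild-type array, held for 4.52% of the 34248 probes with a value on all arrays. The means were 6.02 ± 1.49 (SD, n = 3) and 3.83 ± 0.46 (SD, n = 4), giving a difference of -2.19 with a standard error of 0.65 in the limma fit, or 4.55-fold. By lowest difference the probe ranked 27 of the 34288 that passed the filter on dim probes, and 0.128% of those had a difference of 2.0 or more downward. Without wild-type replicate 1 the difference was -1.33 (standard error 0.30), or 2.51-fold. In bulk tissue such as this, fewer cells that carry the receptor and less Il7r RNA in each cell cannot be told apart.

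**Figure D1:**
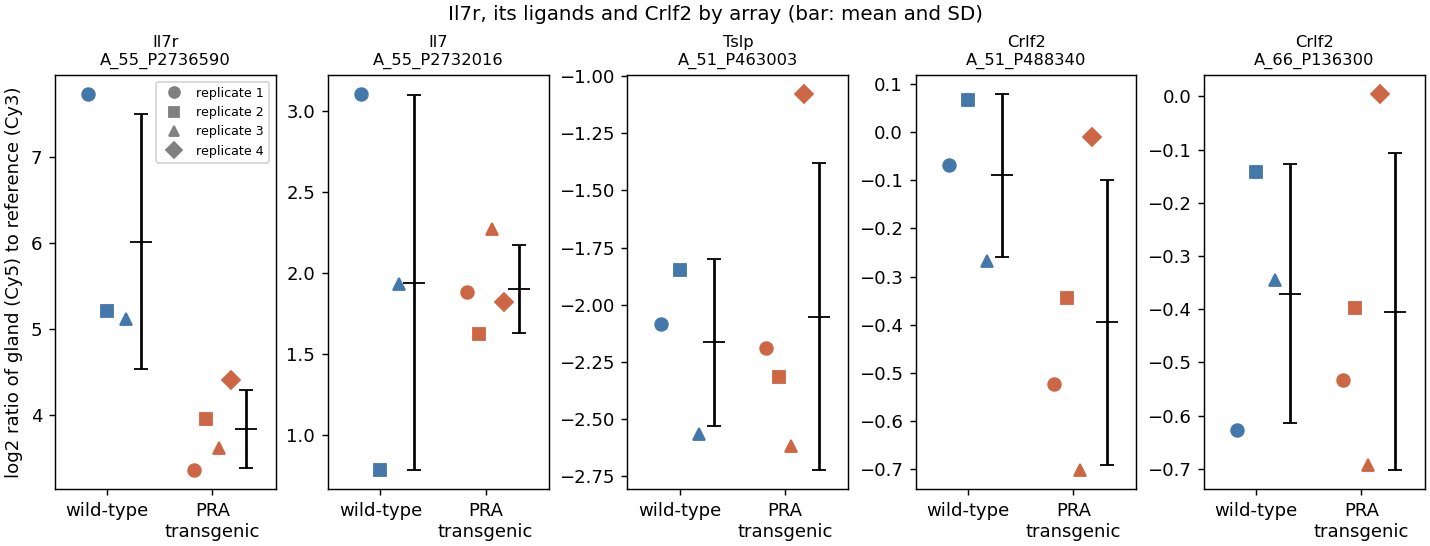
Log2 ratio of gland (Cy5) to reference (Cy3) for the 5 probes of Il7r, Il7, Tslp and Crlf2 with Cy5 signal, each panel with its own axis. Points are arrays, with the symbol giving the replicate, and bars give the mean and SD (n = 3 wild-type, n = 4 PRA transgenic). Only in the Il7r panel do the genotypes not overlap, and wild-type replicate 1 lies at 7.74.

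The separation of the genotypes rested in part on a reference signal that was not above background. The processed Cy5 signal of this Il7r probe was 1318, 425 and 166 in wild-type replicates 1 to 3, and 77.9, 74.7, 79.4 and 276 in PRA transgenic replicates 1 to 4, and it was well above background on all 7 arrays. Thus in the gland channel alone PRA transgenic replicate 4 lay above wild-type replicate 3, and the genotypes overlapped. In Cy5 alone all PRA transgenic arrays were below all wild-type arrays for 4.72% of probes. The Cy3 signal of the reference, between 4.79 and 13.0, was well above background on none of the arrays. The dimmest probes that were well above background in Cy3 read 17.4 to 27.9, depending on the array. With that level in place of the measured Cy3, the gland exceeded the reference at least 75.7-fold, 20.8-fold and 9.07-fold in wild-type replicates 1 to 3. The corresponding bounds were 2.79-fold, 3.83-fold, 3.06-fold and 11.4-fold in PRA transgenic replicates 1 to 4. These bounds overlapped too, since PRA transgenic replicate 4 exceeded wild-type replicate 3.

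In Cy5 alone, taken as log2 signal minus each array's 75th percentile, Il7r differed by -1.89 (standard error 0.72), or 3.69-fold, and by -1.11 without wild-type replicate 1. Before that scaling the 2 channels differed between genotypes by -2.09 in Cy5 and by 0.095 in Cy3. On this scale PRA transgenic replicates 1 to 3 were close together, at -1.85, -1.83 and -1.75, whereas replicate 4 was at -0.059. Wild-type replicates 1 to 3 were at 2.07, 0.27 and -0.80. After normexp background correction and loess the difference in log2 ratio was -1.65.

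**Figure D2:**
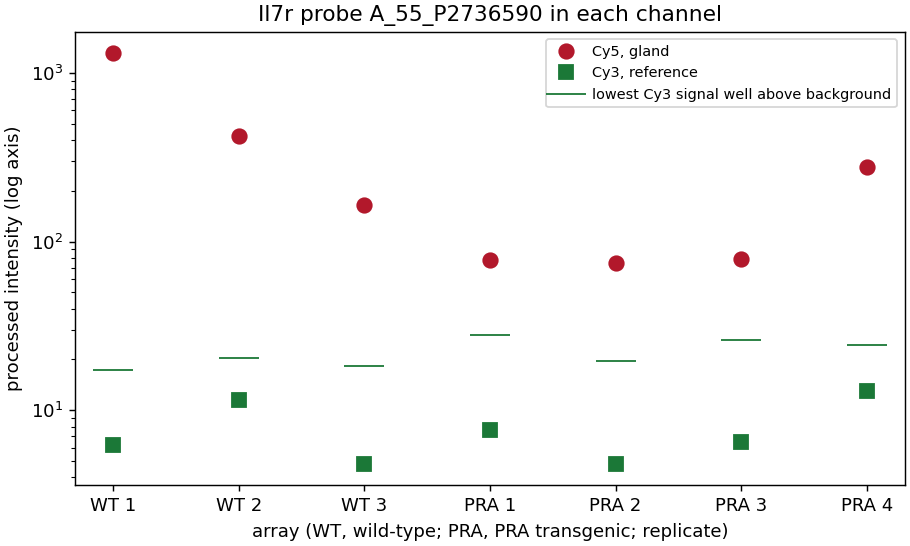
Processed intensity of Il7r probe A_55_P2736590 on each of the 7 arrays, on a log axis, for the gland (Cy5, circles) and the reference (Cy3, squares). Dashes mark the dimmest Cy3 signal that was well above background on that array (17.4 to 27.9), and every Cy3 value lies under its dash. The Cy5 value of PRA transgenic replicate 4 (276) lies above that of wild-type replicate 3 (166).

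The other Il7r probe, A_52_P32750, was well above background on none of the arrays, in Cy5 or in Cy3. Its Cy5 signal ranged from 2.34 to 5.78, with the highest value in wild-type replicate 1, and from 2.92 to 3.73 in PRA transgenic glands. It therefore gave no level for either genotype, and the description of Il7r rests on 1 probe.

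Crlf2, which completes the TSLP receptor, did not separate the genotypes. Its 2 probes lie on the minus strand of chromosome 5 (A_51_P488340, chr5:109983740-109983799, and A_66_P136300, chr5:109986028-109986087) and were well above background in both channels on all arrays. By A_51_P488340 the log2 ratio was -0.07, 0.07 and -0.27 in wild-type replicates 1 to 3 and -0.52, -0.35, -0.70 and -0.01 in PRA transgenic replicates 1 to 4. Replicates 1 to 3 of the PRA transgenic arrays were below all wild-type arrays, and replicate 4 lay within the wild-type range. The difference was -0.30 (standard error 0.19), and in Cy5 alone -0.40 (standard error 0.17). By A_66_P136300 the wild-type values were -0.63, -0.14 and -0.35 and the PRA transgenic values -0.53, -0.40, -0.69 and 0.0038. These overlapped fully, with a difference of -0.03 (standard error 0.20). PRA transgenic replicate 4 was the highest of its group by both probes, as it was for Il7r.

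Il7 itself was dim in these glands and showed no shift between genotypes beyond the spread. Of its 3 probes, A_55_P2732016 was well above background in Cy5 on all 7 arrays. Its Cy5 signal was 41.8, 34.0 and 24.5 in wild-type replicates 1 to 3 and 27.1, 19.6, 30.0 and 21.3 in PRA transgenic replicates 1 to 4. The ranges overlapped, and wild-type replicate 1 was again the highest array. In the reference this probe was well above background on none of the arrays. The log2 ratio was 3.10, 0.79 and 1.93 in wild-type and 1.89, 1.63, 2.27 and 1.82 in PRA transgenic glands. The difference of -0.04 (standard error 0.49) became 0.54 without wild-type replicate 1 and -0.62 without wild-type replicate 2, so its sign was set by single arrays. In Cy5 alone it was -0.23 (standard error 0.22). The remaining Il7 probes, A_55_P2930083 (chr3:7611912-7611971) and A_52_P660552 (chr3:7569999-7570058), did not rise well above background on any of the arrays. Cy5 of A_55_P2930083 was 2.33 to 2.62 in wild-type and 3.16 to 4.01 in PRA transgenic glands. For A_52_P660552 it was 2.34 to 2.58 and 3.13 to 3.97. Both probes thus read higher on every PRA transgenic array than on every wild-type array, in Cy5 and in Cy3. In Cy3 A_55_P2930083 was at 3.32 to 3.79 in wild-type and 4.22 to 5.78 in PRA transgenic glands. The dim Il7r probe had this order in Cy3 only, and Cy3 of the brighter Il7r probe overlapped. What this means for log2 ratios with Cy3 below background was not tested.

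Tslp, measured by 1 probe on chromosome 18 (A_51_P463003), was below the reference in every gland. Its log2 ratio was -2.08, -1.85 and -2.57 in wild-type replicates 1 to 3 and -2.19, -2.32, -2.62 and -1.08 in PRA transgenic replicates 1 to 4. PRA transgenic replicate 4 was the highest of all arrays and the other PRA transgenic arrays lay within or just under the wild-type range. The Cy5 signal was 76.0, 109.2 and 47.2 in wild-type and 62.9, 62.8, 46.9 and 152 in PRA transgenic glands, well above background throughout. The difference of 0.11 (standard error 0.38) was smaller than the spread between animals, and it was -0.21 without PRA transgenic replicate 4. Among the 4 genes, then, the log2 ratios of the genotypes did not overlap for Il7r and overlapped for Il7, Tslp and Crlf2. Over all probes 9.94% had no overlap, in either direction.

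The level of Il7r was then set beside markers of the cells that carry it, since wild-type replicate 1 was the highest array for the summed signal of T cell and of B cell genes. That array also had the highest sums for luminal epithelium (107882, elsewhere 44839 to 81132) and lymphatic endothelium (3954, elsewhere 1538 to 3146). The same held for fibroblasts (306884, elsewhere 186874 to 298607) and lymph node stroma (12796, elsewhere 4541 to 9478), but not for the remaining marker lists. These sums were not scaled per array. In mean log2 ratio the fibroblast list was instead highest in PRA transgenic replicate 4 (3.354). On that scale the NK and innate lymphoid list (1.39) and the macrophage and dendritic cell list (1.84) were also highest in wild-type replicate 1. Of 12 T cell genes listed, 11 passed the filter, and all 11 were highest in wild-type replicate 1. Their summed Cy5 signal was 8912 there, 2528 and 2355 in wild-type replicates 2 and 3, and 1918 to 2654 in PRA transgenic glands. The chains of the T cell receptor complex showed it: Cd3d had log2 ratios of 4.01, 1.00 and 2.09 in wild-type and 1.23 to 2.11 in PRA transgenic glands. Cd3g had 0.91, -1.96 and -1.21 against -2.40 to -1.30, and Cd3e had -0.05, -1.12 and -0.91 against -0.97 to -0.77. Outside wild-type replicate 1 these ranges overlapped.

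All 11 T cell genes had a negative difference with a median of -0.67 (all probes, 0.02), and without wild-type replicate 1 the median was -0.08. One of them, Cd8a, a coreceptor of cytotoxic T cells, passed an unadjusted P under 0.05 and 1.5-fold, a rule that 4.53% of all probes passed in either direction and 2.59% downward. Its difference was -2.71 (standard error 0.88, adjusted p = 0.462, by limma and the Benjamini-Hochberg method), and -1.69 without wild-type replicate 1. The Cd8a probe was well above background in Cy5 on the 3 wild-type arrays and on 1 PRA transgenic array, and passed the filter only through wild-type glands. Its Cy3 was above background on none of the arrays, and in Cy5 alone the genotypes overlapped, with a difference of -2.16, or of -1.09 without wild-type replicate 1. Of 10 B cell genes 7 passed the filter and none passed this rule. Their summed Cy5 signal was 4946 in wild-type replicate 1 against 849 to 1220 on the other arrays, and 5 of the 7 were highest there. Cd22 was lowest in that array, at 0.78 against 0.95 or more, and Pax5 was highest in PRA transgenic replicate 3, at 1.34. Ms4a1, the B cell surface protein CD20, was at -0.23 against -5.26 to -3.85 elsewhere. Cd79a was not tested for want of signal. The part of lymphocyte content in the Il7r values was not tested.

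Il7r and the T cell genes were then compared array by array. The mean log2 ratio of the T cell list was -1.01 and -0.66 in wild-type replicates 2 and 3 and -0.84, -0.56, -1.30 and -1.14 in the PRA transgenic glands, so that these 6 arrays overlapped. The log2 ratios of Il7r, on which it was chosen, did not overlap on them, but its Cy5 alone did. Relative to the T cell list of the same array, Il7r was at 6.57, 6.22 and 5.77 in wild-type replicates 1 to 3 and at 4.19, 4.52, 4.91 and 5.55 in PRA transgenic replicates 1 to 4. The gap between the lowest wild-type and the highest PRA transgenic array was small on this scale. The difference of the means was -1.39, and -1.20 without wild-type replicate 1. In Cy5 alone the same subtraction gave 1.01, 1.59 and 0.20 in wild-type and -0.73, -0.70, -0.18 and 1.38 in PRA transgenic glands, which overlapped, with a difference of -0.99. PRA transgenic replicate 2 had no value for the T cell gene Lat, so its list mean leaves that gene out. Lat was low elsewhere, at -3.49, -3.82 and -3.25 in PRA transgenic replicates 1, 3 and 4. The list mean of replicate 2 is therefore not fully like the others, and the values and differences relative to the list share this limit.

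PRA transgenic replicate 4, which had the highest Il7r Cy5 signal of its group, was also the highest of its group for several marker lists. The 10 genes of the macrophage and dendritic cell list that passed the filter summed to 27895, 31566 and 19918 in wild-type replicates 1 to 3, to 16874 to 18292 in PRA transgenic replicates 1 to 3, and to 33828 in PRA transgenic replicate 4. Adgre1 and Csf1r, macrophage surface receptors, had log2 ratios of 1.82 and 2.58 in PRA transgenic replicate 4, above the other PRA transgenic arrays at 0.73 to 1.14 and 1.13 to 1.40, and Cd68 was at 0.21 against -1.41 to -1.10. Ccr7, the homing receptor of migrating dendritic cells and naive T cells, named here because of its values, was at 4.49, 0.73 and 0.71 in wild-type and at -0.61, -0.42, -0.54 and 2.10 in PRA transgenic glands. In all, 6 of the 10 genes had their highest PRA transgenic value in replicate 4. The exceptions were Mrc1 (7.25, against 7.38 in replicate 2), Itgax (0.99, against 1.64 in replicate 2), Flt3 (-0.84, against -0.77 in replicate 2) and Zbtb46. The summed Cy5 signal of fibroblast genes was 282156 in PRA transgenic replicate 4 against 186874 to 197942 in the other PRA transgenic arrays, that of lymph node stroma 9478 against 4541 to 6310, and that of skeletal muscle 23471 against 1056 to 1703. By these sums PRA transgenic replicate 4 lay within the wild-type range for these lists. Wild-type replicates 1 to 3 were at 306884, 298607 and 198598 for fibroblasts, at 12796, 8502 and 4612 for lymph node stroma, and at 12610, 986 and 71780 for muscle. In mean log2 ratio of the fibroblast list, PRA transgenic replicate 4 (3.354) was just above the highest wild-type array (3.343). For Ccr7, PRA transgenic replicate 4 lay above wild-type replicates 2 and 3. The dendritic cell factor Zbtb46 passed the unadjusted rule downward by its brightest probe (difference -0.93, standard error 0.38, limma adjusted p = 0.534), although the next brightest probe differed by 0.04. Cy3 was above background on none of the arrays for the brightest probe, which differed by -0.41 in Cy5 alone, under 1.5-fold. Mrc1, a macrophage scavenger receptor, passed the rule upward without wild-type replicate 1 (0.69, and 0.12 in Cy5 alone). The median difference of the list was -0.29, and -0.15 without wild-type replicate 1. The part of these cells and tissues in the Il7r values was not tested.

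**Figure D3:**
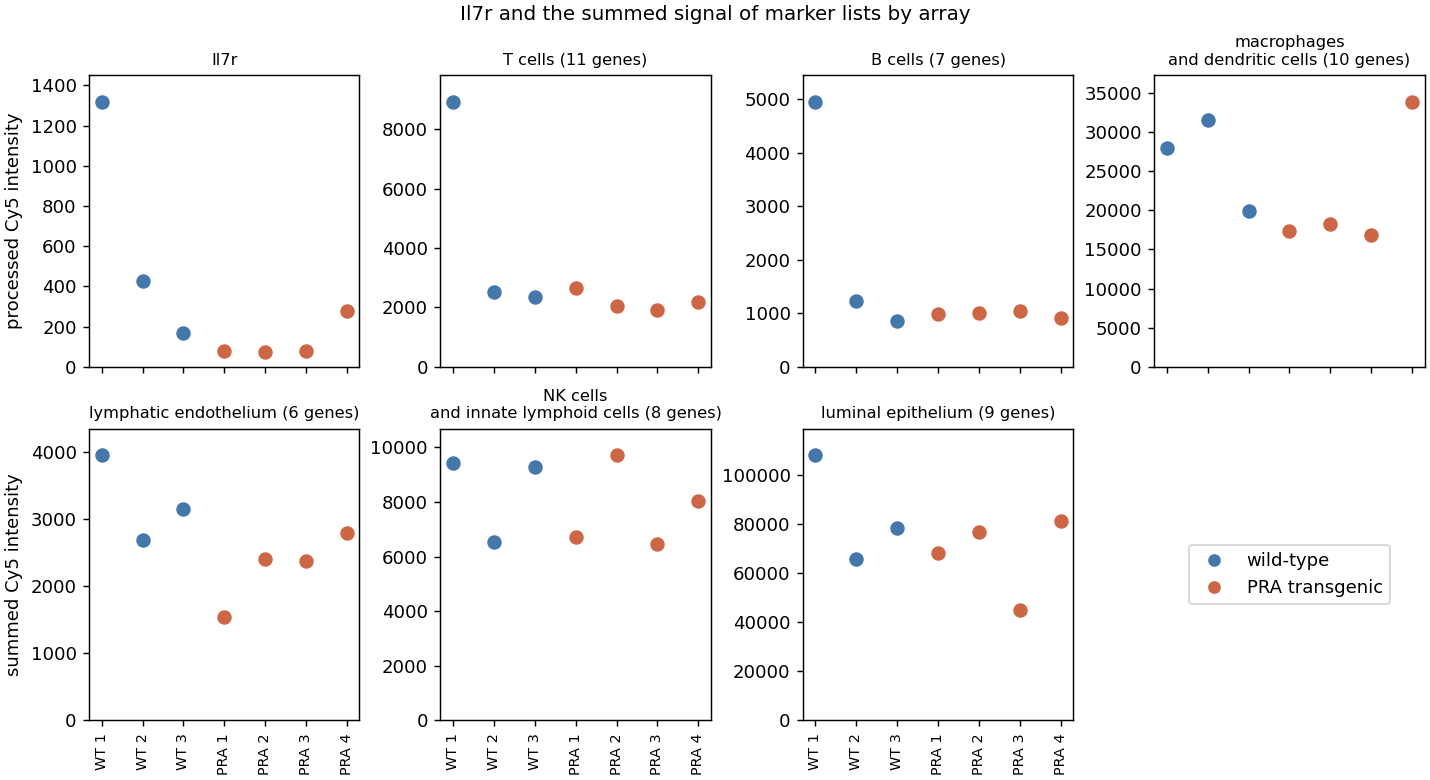
Processed Cy5 intensity of Il7r and summed Cy5 intensity of 6 marker lists on each array, with axes from 0 and colors for genotype. T cell and B cell sums stand out in wild-type replicate 1 alone (8912 and 4946), and the luminal and lymphatic sums are also highest there. The macrophage and dendritic cell sum is highest in PRA transgenic replicate 4 (33828), where Il7r is also above the other PRA transgenic arrays.

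Lymphatic endothelium, a known source of IL-7, was described because 3 of the 6 genes of its list that passed the filter were lower by the unadjusted rule. They were Prox1, the factor that sets lymphatic identity (difference -1.60, standard error 0.42, limma adjusted p = 0.405), Mmrn1 (-1.63, limma adjusted p = 0.440) and the hyaluronan receptor Lyve1 (-1.23, limma adjusted p = 0.515), which some macrophages also express. Prox1 had log2 ratios of 3.61, 2.30 and 3.22 in wild-type and 0.94, 2.31, 1.08 and 1.41 in PRA transgenic glands, so PRA transgenic replicate 2 overlapped. Its probe was well above background in Cy5 on 3 wild-type and 1 PRA transgenic arrays, so that it passed the filter only through wild-type glands, and a dimmer Prox1 probe differed by -0.42. The reference was not above background for any of the 3 genes, and in Cy5 alone they differed by -1.05, -1.06 and -0.63. In log2 ratio all 6 genes had a negative difference, with a median of -0.86, and of -0.74 without wild-type replicate 1. Then 2 of them passed the rule, which 3.17% of all probes then passed downward. In Cy5 alone the median of the list was -0.50, with Reln at 0.08, and it was -0.20 without wild-type replicate 1. Pdpn differed by -0.30, and Flt4 was not tested for want of signal. Il7 differed by -0.04 beside these. Their summed Cy5 signal ran from 2687 to 3954 in wild-type and from 1538 to 2799 in PRA transgenic glands.

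Among 8 genes of NK cells and innate lymphoid cells, many of which depend on IL-7 or related cytokines, 1 was lower by the unadjusted rule. It was Klrg1, an inhibitory receptor of mature lymphocytes, with log2 ratios of 2.20, 3.57 and 3.37 in wild-type and 2.02, 1.85, 0.53 and 0.54 in PRA transgenic glands. The log2 ratios did not overlap, though wild-type replicate 1 was the lowest of its group. Cy5 was well above background on 3 wild-type and 2 PRA transgenic arrays, so that the probe passed the filter only through wild-type glands, and Cy3 was above background on none. In Cy5 alone the genotypes overlapped, with a difference of -1.39. In log2 ratio the difference was -1.81 (standard error 0.51, limma adjusted p = 0.412), and -2.23 without wild-type replicate 1. Gzma, a granule protease of cytotoxic lymphocytes, differed by 0.74, and by 1.04 without wild-type replicate 1, when it passed the rule upward. Ncr1 and Klrb1c, receptors that mark NK cells, differed by -0.31 (0.29 in Cy5 alone) and -0.56 (-0.03 in Cy5 alone). Neither passed, and Klre1 was not tested. The median of the list was -0.22, and -0.03 in Cy5 alone.

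Beyond the 4 genes, the pathway was examined through 68 genes in 7 lists by role, of which 60 passed the filter, each represented by its brightest probe. By the unadjusted rule 1 was higher and 3 were lower, or 6.67% of those tested, against 4.53% of all probes (1.94% higher and 2.59% lower). None passed at an adjusted p under 0.05 in limma, where 0.0117% of all probes did. The lowest adjusted p was 0.421, and 5 had an unadjusted p under 0.05. The median difference was -0.15, where that of all probes was 0.02. Of the 60 genes 43 had a negative difference, as did 45.8% of all probes. Without wild-type replicate 1 the median was -0.05, 2 genes had an unadjusted p under 0.05 and none passed the rule with its fold, while 5.41% of all probes did. The count also fell to 2, 1 and 1 without PRA transgenic replicates 1, 2 and 3.

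Among the receptor chains, the common gamma chain Il2rg, the partner of Il7r for IL-7, had log2 ratios of 0.35, -0.64 and -0.57 in wild-type and -0.66, -0.40, -0.67 and -0.59 in PRA transgenic glands. Only wild-type replicate 1 stood apart. The difference of -0.29 did not pass, and it was 0.03 without that array. Il2ra, the alpha chain of the IL-2 receptor, was the only one of 6 receptor chains tested that was lower by the rule. Its log2 ratio was 4.38, 4.57 and 3.68 in wild-type and 2.44, 2.10, 3.19 and 4.11 in PRA transgenic glands, with PRA transgenic replicate 4 inside the wild-type range. The difference was -1.25 (standard error 0.49, limma adjusted p = 0.520). Its Cy3 signal was above background on none of the arrays, and in Cy5 alone the difference was -0.34. A second Il2ra probe, well above background in both channels on all arrays, differed by 0.12. Il4ra, the chain for IL-4, differed by -0.36 and did not pass.

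The other cytokines that use the common gamma chain gave 3 of 5 genes with signal, and none passed. Il4 differed by -1.22 (standard error 0.59), with 2.17, 2.11 and 1.78 in wild-type and -0.59, 1.02, 0.56 and 2.24 in PRA transgenic glands, so that PRA transgenic replicate 4 exceeded every wild-type array. Il21 differed by 0.41 in log2 ratio but by -0.22 in Cy5 alone, and its high value of 1.56 came from PRA transgenic replicate 1. Il15, named here because of its values, differed by -0.34 (standard error 0.15), and by -0.44 in Cy5 alone. On both scales every PRA transgenic array was below every wild-type array for Il15, as for 4.52% and 4.72% of all probes. In log2 ratio 5 of the 60 pathway genes had this order.

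In signal transduction all 15 genes were tested, and 1 was higher by the rule. Pik3r1, the regulatory subunit of PI3 kinase, had log2 ratios of 0.64, 1.28 and 0.23 in wild-type and 1.66, 1.12, 1.58 and 1.90 in PRA transgenic glands. PRA transgenic replicate 2 lay within the wild-type range. The difference was 0.85 (standard error 0.29, limma adjusted p = 0.463), it was 0.83 in Cy5 alone, and 0.81 without wild-type replicate 1, when it no longer passed. The kinases and factors named in the background differed little: Jak1 by -0.17, Jak3 by 0.02, Stat5a by -0.29 and Stat5b by -0.15, none past the rule. Lck, a kinase of T cells, differed by -0.99 and, without wild-type replicate 1, by -0.19.

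Of 9 inhibitors of the signal 1 was lower by the rule. Socs1, which blocks JAK kinases and is itself induced by cytokines, had log2 ratios of -0.53, -0.56 and -0.999 in wild-type and -1.22, -1.51, -1.54 and -1.05 in PRA transgenic glands. The genotypes did not overlap, though wild-type replicate 3 and PRA transgenic replicate 4 were close. Both channels were well above background on all arrays. The difference was -0.63 (standard error 0.19, limma adjusted p = 0.421), -0.73 in Cy5 alone and -0.55 without wild-type replicate 1, when its fold fell under the rule. Socs2 differed by 0.48 and did not pass. The median of the inhibitors was -0.03.

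Transcription factors known to act on the Il7r gene gave no call among 9. Tcf7 had the largest difference, at -0.84 (standard error 0.66), and it was 0.04 without wild-type replicate 1, which was at -1.15 while the other arrays were at -4.27 to -3.39. Runx1 differed by -0.36, Foxo1, which activates Il7r in lymphocytes, by -0.01, and the glucocorticoid receptor Nr3c1 by -0.04.

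Of 10 survival and growth targets with signal none passed. The antiapoptotic Bcl2, a target of IL-7 signaling, differed by -0.24, Myc by -0.59 (standard error 0.54) and the proapoptotic Bcl2l11 by -0.32.

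Of 8 genes of lymphoid tissue inducer cells and of the TSLP response that were tested, Lta, a lymphotoxin made by lymphocytes and inducer cells, was lower by the rule. Its log2 ratio was 1.78, 0.34 and -0.27 in wild-type and -0.48, -0.47, -0.36 and -0.70 in PRA transgenic glands. The log2 ratios did not overlap, but wild-type replicate 3 was next to the PRA transgenic arrays. Cy3 was well above background on 5 of the 7 arrays, and in Cy5 alone the genotypes overlapped, with a difference of -0.96, or of -0.33 without wild-type replicate 1. The difference was -1.12 (standard error 0.44, limma adjusted p = 0.527) and -0.53 without wild-type replicate 1, when it no longer passed. Ltb, its membrane partner, differed by -1.01 and, without wild-type replicate 1, by -0.14. Ccl17, a chemokine that TSLP induces in dendritic cells, differed by 0.17.

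**Figure D4:**
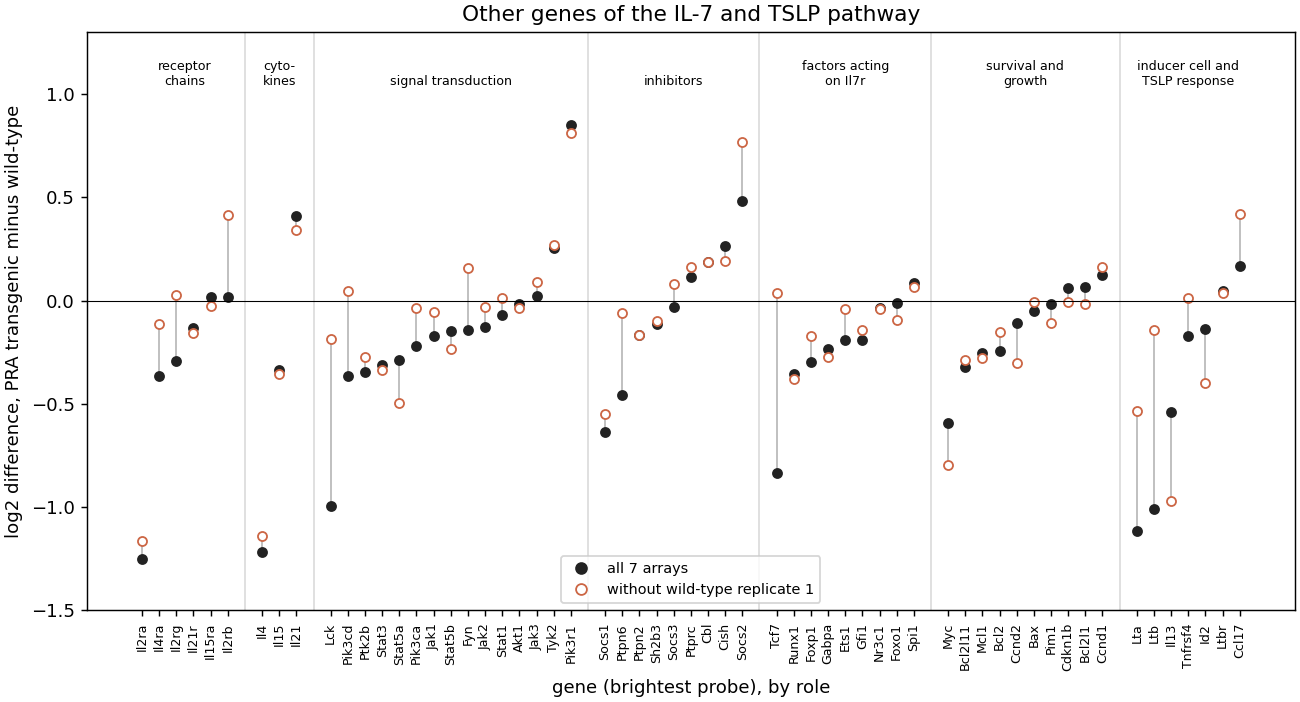
Log2 difference (PRA transgenic minus wild-type) of the brightest probe of 59 of the 60 tested genes of the IL-7 and TSLP pathway, grouped by role, with all 7 arrays (filled) and without wild-type replicate 1 (open). The largest moves toward 0 on leaving out that array are those of Lck, Tcf7, Ltb and Lta, while Il2ra, Il4, Pik3r1 and Socs1 move little.

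The genes whose pattern over the 7 arrays was most like that of Il7r were ranked by Pearson's r among 16800 genes, as a description in which all points share the arrays and the genotype contrast. The closest was Icos, a costimulatory receptor of activated T cells (r = 0.99, rho = 0.93, n = 7 arrays, no test). Its log2 ratio was 5.38, 2.78 and 2.96 in wild-type and 1.67, 2.05, 1.56 and 2.46 in PRA transgenic glands, in nearly the order of Il7r. Next came Tmem86a, Galnt6, Fzd10, Prkcq, Itgav, Gpr171, Rhoh, Rapgef6 and Rhox5, with r from 0.97 down to 0.96. Prkcq, a kinase of T cell receptor signaling, had 5.90, 3.66 and 4.45 in wild-type and 2.72 to 3.40 in PRA transgenic glands. Rhoh, a GTPase of blood cells, had -0.22, -1.92 and -2.36 against -2.73 to -2.26. Each of these genes was highest in wild-type replicate 1, and without it only Rhox5 stayed among the closest 10. Icos then ranked 18, with r = 0.97. In Cy5 alone none of the 10 stayed in the closest 10. By Spearman's rho Galnt6 and Rhox5, at 0.96, tied with the lowest of the closest 10. Because of such ties, rho does not settle which genes belong there. The median r to Il7r was 0.78 for the T cell list and 0.65 for the B cell list, and -0.24 and -0.12 without wild-type replicate 1. For the lymphatic, NK and innate lymphoid, and macrophage and dendritic cell lists it was 0.78, 0.42 and 0.38, and 0.58, 0.53 and 0.52 without that array. Other lists were as high: skeletal muscle, luminal epithelium, fibroblasts and skin keratinocytes had 0.53, 0.45, 0.44 and 0.25. Without that array they had 0.51, 0.13, 0.12 and 0.58. Lymph node stroma, basal epithelium and white adipocytes had 0.21, -0.32 and -0.31, and -0.05, -0.30 and -0.64 without it. For all genes the median r was -0.05 and -0.01.

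**Figure D5:**
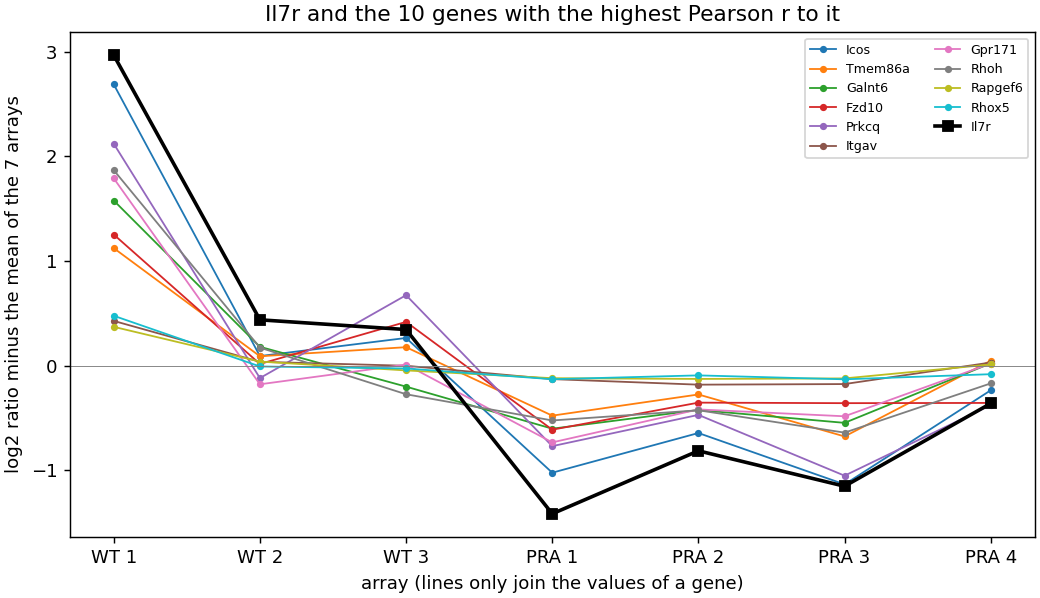
Log2 ratio minus its mean over the 7 arrays for Il7r (squares, thick line) and for the 10 genes with the highest Pearson's r to it; lines only join the values of a gene. All 11 genes are highest in wild-type replicate 1, and among the others Icos and Prkcq come closest to the size of the Il7r values.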

How the data were processed

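The processed intensity of each spot was deposited as written by Agilent Feature Extraction 11.5.1.1 (12.0 in the submitters' processing notes), which subtracts background, corrects spatial trends, normalizes the dyes and puts surrogate values in place of dim signals. A matrix deposited by the authors, with log2 ratios that were centered per probe on their median, served as an alternative. Here log2(Cy5/Cy3) was computed after control spots and outliers were dropped, with replicate spots averaged. Of 56605 probes, 34288 were kept, those with Cy5 well above background throughout at least 1 genotype, and 22317 were left out. Genotypes were compared with lmFit and eBayes of limma 3.58.1 (R 4.3.3), with Benjamini-Hochberg adjustment and all 7 arrays. The unadjusted P under 0.05 with 1.5-fold stands beside it, and the steps were tested on simulated data. Names of other genes were updated through a RefSeq table, and 12867 probes kept the name in the files.

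The members, lists and tests were chosen with earlier results of these data known. Named are all probes of the 4 genes, pathway genes that passed the unadjusted rule or had the 2 largest differences of their list, the first 3 genes and those called of marker lists set beside a result, genes given as background, and the 10 genes most like Il7r. Alternatives were normexp with offset 50 and loess, the deposited matrix, other filters on dim probes, Cy5 alone, array weights, quantile normalization of the ratios, the t-test of the methods, an intensity trend, a replicate block, each array left out, and the median of all probes of each gene. Cy5 alone without wild-type replicate 1, and Il7r relative to the T cell list, were added after seeing the data. Values of 2 listed genes are not reported here one by one, although list counts and sums hold them.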

Additional observations from a re-analysis of the deposited data

Results flagged for a closer look

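In 4 of 39 sets of 4 PRA transgenic values, 1 array stood apart from the other 3, where chance would give about 1.95 sets. For Il7r in Cy5 alone the gap of PRA transgenic replicate 4 to its nearest neighbor was 0.949 of the range of the group. For the log2 ratio of Il21 the gap was 0.954, with PRA transgenic replicate 1 at 1.56 and the others at 0.04 to 0.11. For the mean of the fibroblast list it was 0.905, with PRA transgenic replicate 4 at 3.35 and the others at 2.84 to 2.89. Wild-type replicates 1 to 3 were at 3.34, 3.20 and 2.83 for that list. For the mean of the skeletal muscle list it was 0.971, with PRA transgenic replicate 4 at 2.40 and the others at -1.19 to -1.09. Wild-type replicates 1 and 3, at 1.80 and 3.19, were also high in the muscle list, and replicate 2 was at -1.37.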

How the results depend on the processing

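The Il7r difference was negative under all 19 alternatives in which it could be computed. This sign is a description only, since Il7r was picked for its low values on these same arrays. Some alternatives, such as the methods' t-test, the intensity trend and no filter, leave the difference of means unchanged. Leaving out 1 array at a time gave -2.64 to -1.33, with -1.33 without wild-type replicate 1, and Cy5 alone without that array gave -1.11. With both channels well above background required on all arrays, no Il7r probe was left. The count of probes past the unadjusted rule, 1552, was 328 after normexp and loess, 3367 with no filter, 468 with both channels required, 996 by the methods' t-test, 688 by the median over probes of a gene, and 1393 to 2349 without 1 array, the highest without PRA transgenic replicate 4. The 4 probes at an adjusted p under 0.05 became 15 with no filter, 1 by the methods' t-test, 11 with array weights, 0 by the median over probes, and 1 to 16 without 1 array, 16 without PRA transgenic replicate 4, 7 without wild-type replicate 2 and 1 without PRA transgenic replicate 3. The 4 pathway genes called became 1 after normexp and loess, 2 with both channels required, in Cy5 alone, by the methods' t-test, and in Cy5 alone without wild-type replicate 1, and 0 to 4 without 1 array. Signs turned for Il4 after normexp and loess (0.0033), for Il21 in Cy5 alone (-0.22) and in Cy5 alone without wild-type replicate 1 (-0.23), and for Tcf7 without wild-type replicate 1, where leaving out 1 array gave -1.47 to 0.039. The causes were not tested.

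With the replicate block, which drops PRA transgenic replicate 4, the Il7r difference was -2.38, 2444 probes passed the unadjusted rule, 0 passed at an adjusted p under 0.05 in limma, and 3 pathway genes were called. Deviations of arrays with the same number correlated at 0.10, -0.30 and 0.04, which gave no sign that the numbers pair the animals. So few arrays cannot exclude a pairing, and the study describes the wild-type mice as littermates. With 1 slide in all, no block for the slide was run.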

Other observations

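The remaining marker lists gave these values. Of 9 luminal and 8 basal epithelial genes none passed the unadjusted rule, with medians of -0.21 and 0.09. None of 8 fibroblast genes (median -0.10) or 8 white adipocyte genes (median 0.15, and -0.08 in Cy5 alone) passed. None of 7 skeletal muscle genes passed, with a median of -1.93 and a summed Cy5 signal from 986 to 71780 in wild-type glands. Of 5 skin keratinocyte genes Lor was lower by the rule (limma adjusted p = 0.530), but no PRA transgenic array had it well above background, so its level there is a bound. The median of these genes was -0.22. Of 7 genes of lymph node stroma and homing Lyve1, which the lymphatic list shares, was lower, with a median of 0.02, and of -0.37 in Cy5 alone. Ccl19, a chemokine of lymph node stroma, was at 6.09 in wild-type replicate 1 and at 2.36 to 3.80 on the other arrays.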
